A study of Mus musculus with 6 samples.

Results

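Transcript levels of 10 MAP kinase feedback genes were examined in mouse spleen libraries that carry the label of γδ T cells. The genes encode 6 dual-specificity phosphatases (Dusp1, Dusp2, Dusp4, Dusp5, Dusp6 and Dusp10) and 4 Sprouty and Spred proteins (Spry1, Spry2, Spred1 and Spred2). They were taken by symbol and are 10 of the 52550 genes listed in the deposited files. All cells came from C57BL/6 mice, were given IL-23 and IL-1β for 3 days, and were cultured in wells that carried anti-CD3 and anti-CD28. The control group (Control, n = 3 libraries) received nothing more. The other group (DON, n = 3 libraries) was also given DON, an abbreviation that the labels leave unexpanded. The dose of DON, the age and sex of the mice and the number of mice behind a library are not given in the sources used here. The comparison asks how the stimulated cells' transcripts differed when DON was present.

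MAP kinases (ERK, p38 and JNK) carry signals from the T cell receptor and from cytokine receptors to the nucleus, and each is switched on by phosphorylation of a threonine and a tyrosine. Dual-specificity phosphatases remove both phosphates, and several of their genes are themselves induced by MAP kinase signalling, so that they act as brakes. Sprouty and Spred proteins act further upstream, at the membrane, where they restrain the activation of Ras and Raf. Spred proteins do so by bringing neurofibromin, the product of Nf1, to Ras. In T cells these genes are known as markers and limiters of receptor signalling.

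The depth of the libraries ranged from 33715873 to 40840099 recovered count units. The T cell markers fixed for the check were present in all libraries, and so were markers of other blood cells. The summed level of 13 B cell markers ranged from 70390 to 73780 normalized counts in Control and from 48640 to 55390 in DON, and 11 of the 13 fell. The summed level of 10 neutrophil markers ranged from 11670 to 12260 in Control and from 2686 to 3143 in DON, and 7 fell. Of 14 macrophage and monocyte markers, 6 rose and 1 fell, and of 7 mast cell and basophil markers 4 fell. Of 10 tested dendritic cell markers 1 fell, and 1 of 7 tested erythroid markers and 2 of 10 T cell markers rose. No marker found in the files was at 0 in all 6 libraries. In bulk samples such as these, fewer cells of a type and less RNA per cell cannot be told apart. The part of these cell types in the results on feedback genes was not tested.

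Among the feedback genes, a single transcript passed the test. All 10 genes passed the filter on low values. Spred2 fell, none rose, and 9 did not pass the test (limma, two-sided, Benjamini-Hochberg adjusted p under 0.05 over 17185 tested genes). In limma 0 members rose, with 0 at an unadjusted p under 0.05, and edgeR and DESeq2 likewise called 0 higher. The share called was 10% of the members, beside 6.45% of all tested genes. Lower calls made up 4.15% of all tested genes and higher calls 2.3% (713 and 395 genes), and with the GC trend of each library removed the split was 720 lower and 840 higher. The median log2 change was -0.13 over the 10 members and 0 over all tested genes, and 5 members had an estimate below 0. The 3 Control and 3 DON libraries did not overlap for Dusp1, Spred1 and Spred2, 30% of the members, beside 31.4% of all tested genes. Of these 3, Spred1 and Spred2 were lower and Dusp1 was higher, beside 15.7% of all tested genes in each direction. These shares lie near those of all genes.

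**Figure D1:**
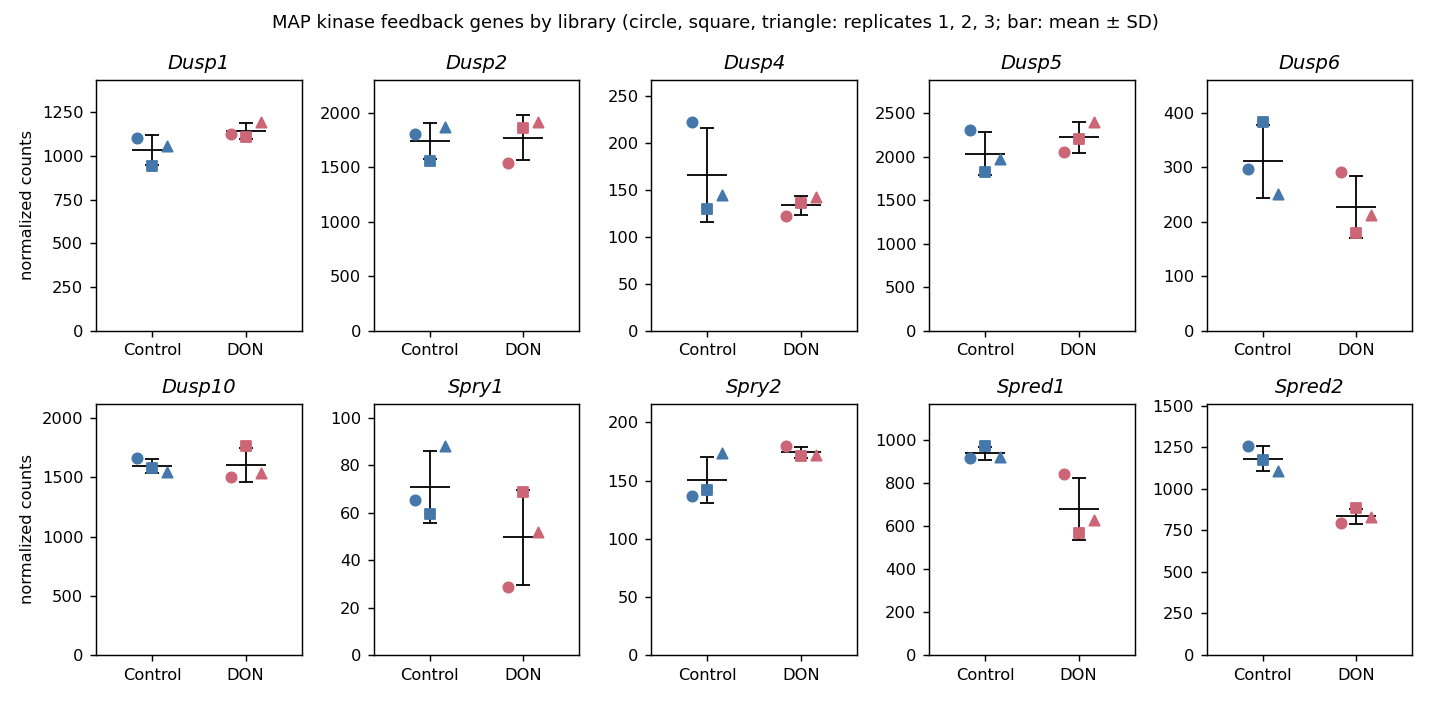
Normalized counts (vertical axes, from 0) of each of the 10 feedback genes in the 3 Control and 3 DON libraries, with the mean and SD of each group. Spred2 stands between 1108.6 and 1257.2 in Control and between 790.9 and 883.0 in DON, while most other genes overlap between groups.

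Per length of exon, the feedback genes spanned a wide range of levels. In Control, Dusp2 stood at 870 ± 82.3 normalized counts per kb of exon (SD, n = 3) and Dusp5 at 822 ± 99.5, and these top levels overlapped. Dusp10 (525 ± 20.3), Dusp1 (312 ± 25.3), Spred2 (255 ± 16.1) and Spred1 (138 ± 4.52 normalized counts per kb) followed, each clear of its neighbours in all 3 libraries. Dusp6 (99.2 ± 21.5), Spry2 (72.1 ± 9.5) and Dusp4 (60.5 ± 18.3 normalized counts per kb) overlapped from neighbour to neighbour, and Spry1 was at the bottom with 24.4 ± 5.24. The order in DON was the same for Dusp10, Dusp1, Spred2, Spred1, Dusp4 and Spry1. Dusp5 (898 ± 71.1) and Dusp2 (883 ± 103 normalized counts per kb) changed places in DON, and so did Spry2 (83.6 ± 2.24) and Dusp6 (72.7 ± 18.3), and both of these pairs overlapped. Spred1 (99.9 ± 21.3 normalized counts per kb in DON) overlapped Spry2 there. The level of Spred2 in DON (181 ± 10) kept its place between Dusp1 and Spred1. Exon lengths were the union of the exons in GENCODE release M21, since the length column of the files gives the genomic span. The positions of Dusp1 and Spry2 in that release differ from those in the files, and the exon union of Dusp1 (3311 bases) is longer than its span in the files, so the levels per kb of these 2 genes rest on another gene model.

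**Figure D2:**
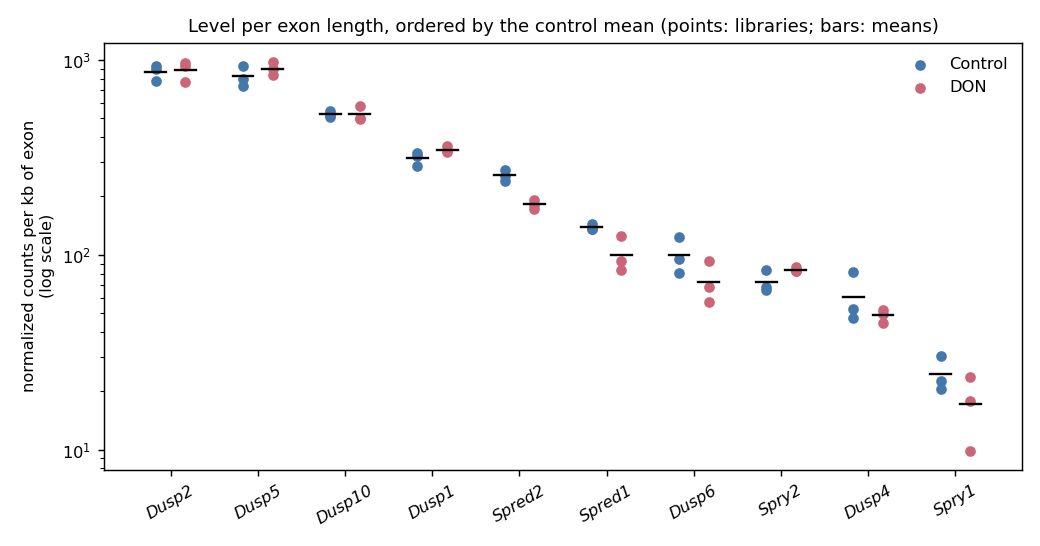
Normalized counts per kb of exon (log scale) of the 10 genes, ordered by their mean in Control, with a point for each library and a bar for each group mean. The levels run from 870 for Dusp2 to 24.4 for Spry1 in Control.

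RefSeq promoter windows on GRCm38.p6, the 250 bases before the annotated start, were matched by symbol for 9 of the 10 members; Dusp4 was the other. They were searched on both strands for the cAMP response element TGACGTCA, the AP-1 site TGANTCA, the ETS site CCGGAAG and the CArG box, which serum response factor binds. These motifs did not overlap each other in the windows, and only Dusp1 and Dusp5 held any of them. The RefSeq start of Dusp10 is not its listed start: its window (184034131 to 184034380) lies inside the gene, which begins at 184013302. The bases before that listed start were not searched. The window of Spred1 ends short of the listed start, and those of Dusp1, Dusp5 and Spred2 run past it. Of all 32851 windows of the same length, 1.55% held TGACGTCA, 6.75% TGANTCA, 6.91% CCGGAAG and 1.47% a CArG box. The windows of these 2 genes are shown because they hold the motifs, and that of Spred2 because Spred2 passed the test. Capitals mark the motifs, and each sequence runs 5′ to 3′ on the gene's strand.
Dusp1, chr17:26508473-26508722, minus strand: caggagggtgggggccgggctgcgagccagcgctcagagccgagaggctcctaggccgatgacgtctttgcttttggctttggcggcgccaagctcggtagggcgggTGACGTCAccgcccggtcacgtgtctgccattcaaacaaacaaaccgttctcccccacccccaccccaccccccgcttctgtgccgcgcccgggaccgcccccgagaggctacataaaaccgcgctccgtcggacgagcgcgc
Dusp5, chr19:53528895-53529144, plus strand: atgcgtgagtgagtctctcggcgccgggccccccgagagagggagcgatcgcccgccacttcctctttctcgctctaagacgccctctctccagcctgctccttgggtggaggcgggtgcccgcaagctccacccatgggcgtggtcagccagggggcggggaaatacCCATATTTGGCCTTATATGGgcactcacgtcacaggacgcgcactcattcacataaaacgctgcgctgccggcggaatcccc
Spred2, chr11:19924192-19924441, plus strand: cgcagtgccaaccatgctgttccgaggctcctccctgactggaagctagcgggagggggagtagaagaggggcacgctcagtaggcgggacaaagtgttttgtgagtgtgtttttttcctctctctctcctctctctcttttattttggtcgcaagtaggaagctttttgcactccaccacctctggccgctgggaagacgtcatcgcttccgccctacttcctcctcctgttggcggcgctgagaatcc
The element of Dusp1 began 143 bases before the start, and Dusp5 held a pair of abutting CArG boxes that began 82 and 72 bases before it. A match describes the letters of a window and does not show that a factor bound there.

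The nuclear phosphatases came first. Dusp1 (ENSMUSG00000024190.6, chromosome 17, 26505590 to 26508519), whose product acts on ERK, p38 and JNK, had 1102.7, 940.4 and 1058.3 normalized counts in Control libraries 1 to 3. In DON libraries 1 to 3 Dusp1 had 1122.8, 1109.6 and 1196.5. Every DON library lay above every Control library, by a small margin. The log2 change of Dusp1 was 0.15 (limma adjusted p = 0.37, 95% interval -0.07 to 0.37), so the cAMP response element gene of the printed windows did not pass.

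Dusp2, known as PAC-1 and induced in activated lymphocytes (ENSMUSG00000027368.6, chromosome 2, 127336159 to 127338376), had 1802.6, 1554.9 and 1867.4 normalized counts in Control. In DON Dusp2 had 1533.0, 1854.3 and 1917.8. The groups covered nearly the same range, with DON library 1 lowest. Its log2 change was 0.02 (limma adjusted p = 0.936, 95% interval -0.25 to 0.29). Dusp5, an ERK-specific phosphatase of the nucleus (ENSMUSG00000034765.6, chromosome 19, 53529109 to 53542431), had 2303.1, 1822.7 and 1970.0 normalized counts in Control and 2053.3, 2205.7 and 2404.1 in DON. The groups overlapped, Control library 1 standing above DON libraries 1 and 2. The log2 change of Dusp5 was 0.13 (limma adjusted p = 0.48, 95% interval -0.12 to 0.38). Dusp4, another nuclear phosphatase (ENSMUSG00000031530.6, chromosome 8, 34807297 to 34819894), had 222.9, 129.5 and 144.6 normalized counts in Control and 122.4, 135.6 and 142.9 in DON. Control library 1 stood apart and the other 5 libraries lay close together. The log2 change was -0.27 (limma adjusted p = 0.506, 95% interval -0.81 to 0.27), and -0.04 without Control library 1.

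Of the phosphatases found in the cytoplasm, Dusp6, which acts on ERK (ENSMUSG00000019960.8, chromosome 10, 99263231 to 99267489), had 297.2, 384.1 and 251.2 normalized counts in Control. In DON Dusp6 had 290.7, 179.3 and 212.8. DON libraries 2 and 3 lay below all Control libraries, and DON library 1 lay among them. The log2 change was -0.46 (limma adjusted p = 0.255, 95% interval -0.98 to 0.07). It was -0.29 without Control library 2, -0.30 without DON library 2, -0.65 without DON library 1 and -0.07 without DON libraries 2 and 3, and passed in none of these. Dusp10, which acts on p38 and JNK in cytoplasm and nucleus (ENSMUSG00000039384.8, chromosome 1, 184013302 to 184075636), had 1666.8, 1576.9 and 1548.5 normalized counts in Control and 1507.2, 1766.9 and 1536.9 in DON. Its groups overlapped with nearly equal means, 1597.4 ± 61.7 and 1603.7 ± 142 (SD, n = 3 each). The log2 change of Dusp10 was 0.00 (limma adjusted p = 0.989, 95% interval -0.21 to 0.21), the narrowest interval among the 10 members. The listed gene 1700056E22Rik, at a mean of 64.3 normalized counts in Control, overlaps Dusp10 on the opposite strand, so some reads may be shared.

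Of the Sprouty genes, Spry1 (ENSMUSG00000037211.12, chromosome 3, 37639947 to 37644598), which restrains Ras-ERK signalling, had 65.5, 59.3 and 88.2 normalized counts in Control. In DON Spry1 had 28.7, 68.7 and 51.7. DON library 1 was lowest, and DON library 2 lay within the Control range. With 30 to 86 recovered units per library the log2 change of Spry1 was poorly determined, at -0.57 (limma adjusted p = 0.366, 95% interval -1.42 to 0.28). The estimate was -0.23 without DON library 1, -0.84 without DON library 2 and -1.26 without DON libraries 2 and 3, and passed in none of these. The gene Gm42922, at 13.1 normalized counts in Control and 7.07 in DON, overlaps Spry1 on the opposite strand. Spry2, its paralog (ENSMUSG00000022114.4, chromosome 14, 105891949 to 105896819), had 136.9, 141.6 and 173.3 normalized counts in Control and 179.8, 171.3 and 172.2 in DON. The DON libraries lay close together, with libraries 2 and 3 inside the Control range and library 1 above it. The log2 change of Spry2 was 0.22 (limma adjusted p = 0.442, 95% interval -0.16 to 0.60).

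Spred2 was the member that passed. Spred2 (ENSMUSG00000045671.17, chromosome 11, 19924375 to 20024026) had 1257.2, 1172.0 and 1108.6 normalized counts in Control libraries 1 to 3. In DON libraries 1 to 3 Spred2 had 790.9, 883.0 and 828.7. The groups did not overlap: the highest DON value was well under the lowest Control value. Spred2 fell from a mean of 1179.2 ± 74.6 to 834.2 ± 46.3 normalized counts (SD, n = 3 each; limma adjusted p = 0.0254, log2 change -0.50, SE 0.09, 95% interval -0.72 to -0.28). The change kept its direction and size in all 20 alternatives, from -0.57 to -0.45 on the log2 scale, but the call held in 11 of them, with adjusted p from 0.000334 to 0.0973. It was lost without Control library 1, 2 or 3 (limma adjusted p = 0.0968, 0.0973 and 0.0733) and without DON library 2 or 3 (0.0586 and 0.0826), and without DON libraries 2 and 3 together the log2 change was -0.57 (0.0924). In the same libraries 11 of 13 B cell markers and 7 of 10 neutrophil markers fell, and their part in the fall of Spred2 was not tested.

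Spred2 was compared with 9839 genes that had a mean of at least 5 CPM (recovered units scaled to a common library total). Genes whose symbols are clone names were left out beforehand. Among those compared, the 3 whose pattern over the 6 libraries was most like that of Spred2 were Igha, Igkv1-117 and Rasgrf2. Likeness was the root mean square difference of the centred log2 values, which was 0.0323 for Igha, 0.0396 for Igkv1-117 and 0.0426 for Rasgrf2. Igha and Igkv1-117 are immunoglobulin genes, made by B cells and plasma cells, and Rasgrf2 encodes an exchange factor that activates Ras. Since they were chosen for their likeness to Spred2 in these libraries, their log2 changes of -0.47, -0.50 and -0.52 follow from the choice and are given as a description (limma adjusted p = 0.053, 0.0637 and 0.062).

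Spred1, the paralog of Spred2 (ENSMUSG00000027351.14, chromosome 2, 117121374 to 117182279), had 917.9, 973.3 and 922.9 normalized counts in Control. In DON Spred1 had 841.6, 566.4 and 626.1. DON library 1 lay just under the Control range, and DON libraries 2 and 3 were far below it. The log2 change of Spred1 was -0.49, close to that of Spred2, but its spread was wider and it did not pass (limma adjusted p = 0.0938, 95% interval -0.84 to -0.14). Without DON library 1 the log2 change was -0.65 and passed (limma adjusted p = 0.00477), and without DON libraries 2 and 3 it was -0.16 (0.597). DESeq2 also called Spred1 lower (log2 -0.47, adjusted p = 0.0468), while edgeR did not (adjusted p = 0.116). Of 20 alternatives, Spred1 passed in these 2 alone: without DON library 1 and in DESeq2.

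The 2 Spred genes differed in how they stood against genes of like base composition. The longest transcript of Spred1 had a GC content of 41.2%, and the median of 1114 tested genes within 1 percentage point of it deviated from the Control mean by -0.03, -0.37 and -0.38 on the log2 scale in DON libraries 1, 2 and 3. Spred1 itself deviated by -0.16, -0.73 and -0.58. The transcript of Spred2 had a GC content of 51.2%, and 1811 genes of like composition deviated by 0.04, 0.11 and 0.11, whereas Spred2 deviated by -0.57, -0.415 and -0.51. With each library's GC trend removed, the log2 change of Spred1 was -0.175 (limma adjusted p = 0.27, 95% interval -0.39 to 0.04), and that of Spred2 was -0.52 (limma adjusted p = 0.0133, 95% interval -0.73 to -0.32). For the phosphatases and Sprouty genes the GC-corrected log2 changes ran from -0.60 for Spry1 to 0.29 for Spry2, and none passed. The corrected values of all 10 members stand beside the uncorrected ones in the plot of log2 changes.

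**Figure D3:**
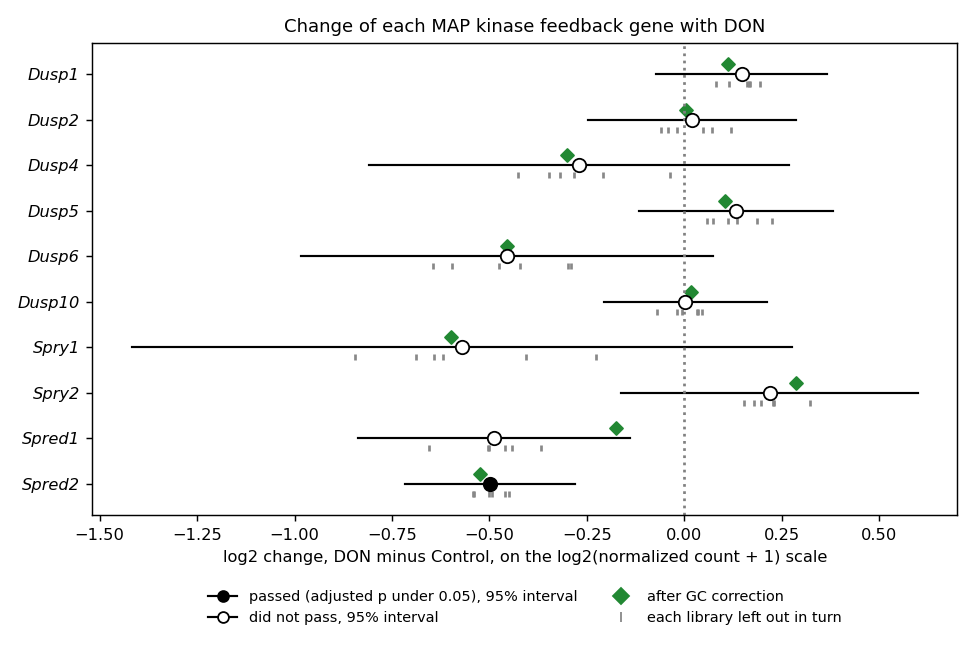
Log2 change of each feedback gene (DON minus Control) with its 95% interval, the GC-corrected estimate and the estimates with each library left out in turn. Spred2 lies at -0.50 with every estimate near it, and the estimate of Spred1 moves from -0.49 to -0.175 after the GC correction.

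**Figure D4:**
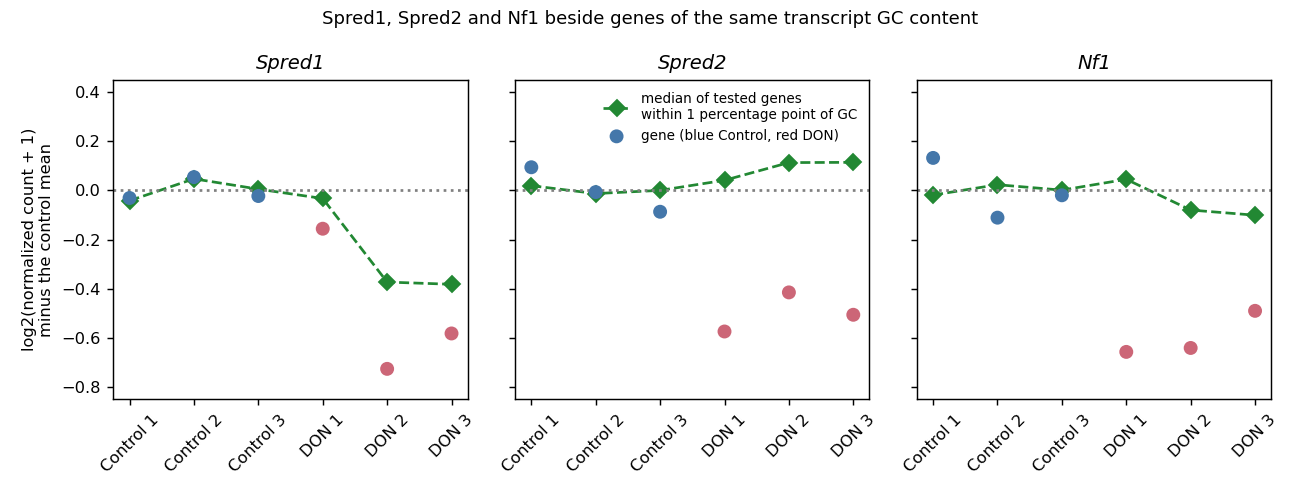
Deviation from the Control mean on the log2 scale in each library for Spred1, Spred2 and Nf1 (points), and the median deviation of tested genes within 1 percentage point of the same transcript GC content (diamonds). The genes of like composition stand at -0.37 and -0.38 in DON libraries 2 and 3 for Spred1, and above 0 in all DON libraries for Spred2.

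Of the other genes listed from these families, no tested gene passed in limma. Of 14 other dual-specificity phosphatase genes 13 were tested, and limma called 0 lower and 0 higher, with 1 in each direction at an unadjusted p under 0.05 (median log2 change 0.00). EdgeR called 0 as well, and DESeq2 called Dusp9 lower and Dusp11 higher, names chosen after their values were seen. Dusp7, a cytoplasmic phosphatase of ERK, stood at 3093.9 ± 189 normalized counts in Control and 2883.8 ± 108 in DON (log2 change -0.10, limma adjusted p = 0.436). Dusp16, a phosphatase of JNK and p38, differed by 0.18 on the log2 scale (limma adjusted p = 0.469) and Dusp14 of 0.00 (0.996). The low gene Dusp9 had 27.4, 13.2 and 19.5 normalized counts in Control and 3.8, 0 and 0 in DON. It did not pass in limma (adjusted p = 0.0628). Dusp9 met the filter on low values through its Control libraries alone, so its fall is given as a description. Dusp11, an RNA phosphatase in spite of its name, differed by 0.22 on the log2 scale (limma adjusted p = 0.0525). Spry4 did not pass the filter, with 16.6, 0 and 4.1 normalized counts in Control and 0, 19.6 and 8.1 in DON. Spred3 was the single tested gene among the 3 other Sprouty and Spred genes, and its log2 change of -0.23 did not pass (limma adjusted p = 0.692); limma, edgeR and DESeq2 called 0, and 0 had an unadjusted p under 0.05.

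In the Ras to ERK cascade, 1 of 23 genes fell and 1 rose (median log2 change -0.02). The gene that fell was Nf1, whose product neurofibromin is the Ras inhibitor that Spred proteins recruit. Nf1 had 1320.7, 1116.0 and 1188.5 normalized counts in Control and 764.1, 772.4 and 858.1 in DON. All DON libraries lay well below all Control libraries. The log2 change of Nf1 was -0.60 (SE 0.10, limma adjusted p = 0.0187, 95% interval -0.83 to -0.36), and -0.48 after the GC correction (0.0457). Without Control library 1, 2 or 3 the adjusted p was 0.0742, 0.0525 or 0.076, and without DON library 2 it was 0.0682, so the call was lost; over all alternatives it ranged from 4.54e-05 to 0.107.

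Araf, which encodes a Raf kinase, rose from 4384.9 ± 29.2 to 5281.2 ± 233 normalized counts (SD, n = 3 each; log2 change 0.27, limma adjusted p = 0.046). The call was lost without Control library 1, 2 or 3 (0.127, 0.148 and 0.148), without DON library 2 or 3 (0.0972 and 0.132), and in edgeR (adjusted p = 0.0549), with a range over alternatives from 0.00853 to 0.148. Mapk3, which encodes an ERK kinase, stood at 1813.7 ± 98.3 normalized counts in Control and 1905.9 ± 272 in DON (SD, n = 3 each) and did not pass (limma adjusted p = 0.763, log2 change 0.06).

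Of 18 genes of the p38 and JNK cascades 1 fell, and limma called 0 higher, with 1 at an unadjusted p under 0.05 and 0 called higher in edgeR or DESeq2 (median log2 change -0.05). Gadd45g, which encodes an activator of the p38 and JNK pathways, fell from 495.0 ± 14 to 241.2 ± 22.4 normalized counts (SD, n = 3 each; limma adjusted p = 0.00485, log2 change -1.04, SE 0.12). Gadd45g passed in all 20 alternatives. Mapk14, which encodes p38α, varied widely in Control, with 5452.9, 3103.3 and 1948.4 normalized counts against 2504.7, 3614.1 and 2721.3 in DON. The DON libraries lay within the Control range (log2 change -0.14, limma adjusted p = 0.828). Mapk8, which encodes a JNK, stood at -0.45 on the log2 scale (limma adjusted p = 0.0508). With its transcript GC content of 40.1%, Mapk8 had a log2 change of -0.06 after the GC correction (adjusted p = 0.664), and without DON libraries 2 and 3 of -0.24 (limma adjusted p = 0.357). It passed without DON library 1 (-0.55, limma adjusted p = 0.00434), with a minimum mean of 5 CPM (0.0424), with equal library totals (0.0477) and in DESeq2 (0.00781).

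Of 13 tested transcripts known from other settings to follow ERK signalling, 3 fell, Egr1, Egr3 and Lif, and limma called 0 higher, with 0 at an unadjusted p under 0.05 and 0 in edgeR or DESeq2. The median log2 change was -0.50, beside -0.13 for the feedback genes and 0 for all tested genes. Egr3 had 847.5, 609.0 and 657.3 normalized counts in Control and 238.1, 289.0 and 339.4 in DON, so that its groups lay far apart. Egr1 and Egr3, early response transcription factor genes, had log2 changes of -0.71 and -1.28, and Lif, a cytokine gene, of -1.27 (limma adjusted p = 0.00833, 0.00859 and 0.018). The call of Egr1 was lost without Control library 2 (0.051). That of Lif was lost without any single Control library (adjusted p from 0.0639 to 0.0845) or without DON library 2 or 3 (0.0578 each), while without DON library 1 it passed. Fos (log2 change 0.04) and Etv5 (-0.08) did not pass (limma adjusted p = 0.9 and 0.808), and Etv4 was listed at 0 in all libraries. Whether the ERK response list and the feedback genes differed was not tested.

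**Figure D5:**
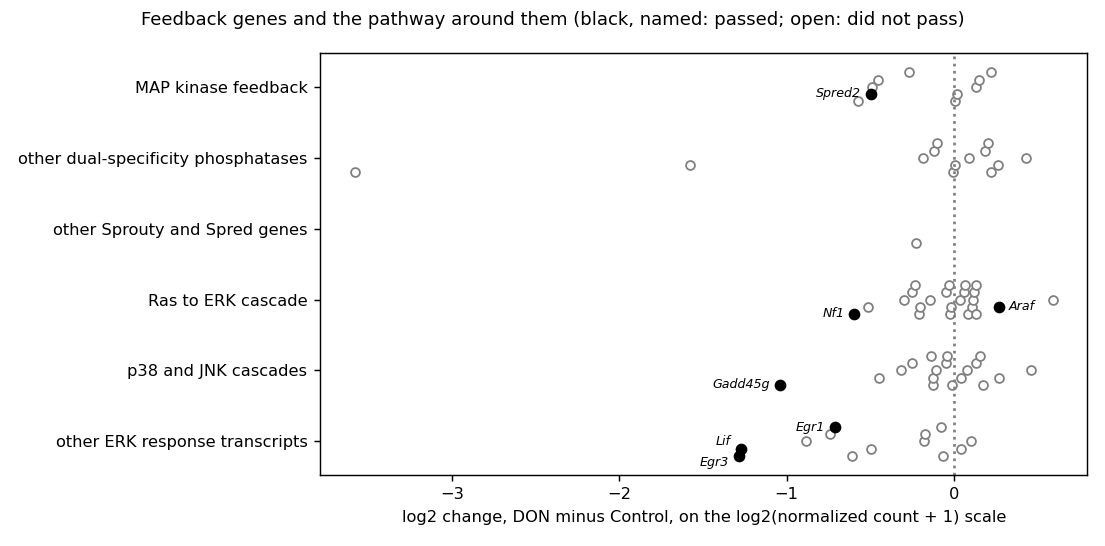
Log2 change (DON minus Control) of each tested feedback gene and of each tested gene in 5 lists of the pathway around them; filled points passed and are named. The feedback genes lie between -0.57 and 0.22, and the 3 named ERK response transcripts between -1.28 and -0.71.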

How the data were processed

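Gene levels came from 6 mRNA libraries made, per the labels' protocols, from Trizol-extracted RNA using the VAHTS v2 kit for mRNA libraries. The submitters' processing notes name HISAT2, StringTie, mm8 and mm10, without roles or versions; strandedness and counter are not given in the sources used here. Per the file headers, the deposited values are normalized counts, a signal obtained by the authors. That gene counts were scaled with a factor for each library was inferred from the values. All values were whole multiples of 1 step per library (100%, tolerance 0.001), which gave recovered counts, though 1 unit need not be 1 read. Positions are those of the files; 49909 of 52550 genes had the same position in GENCODE release M21 (GRCm38).

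Values sharing a symbol were summed, and genes with at least 10 normalized counts in at least 3 libraries (17185) were tested with limma 3.58.1 in R 4.3.3 (variance trend, two-sided) on log2(value + 1), with Benjamini-Hochberg adjustment at 0.05; this scale understates changes of low genes. Alternatives used edgeR 4.0.16 and DESeq2 1.42.0 on recovered counts, other scalings, filters and pseudocounts, a GC correction (loess, span 0.5; GC known for 99.8% of tested genes), the replicate block, and libraries left out. The limma, edgeR and DESeq2 fits and the GC correction were also run on simulated data, with an outcome not reported here. The replicate block and the libraries left out were not part of that simulation. The named genes were all members, all passing pathway genes, 8 genes fixed by name, of which 1 is not reported here, and the 3 genes most like Spred2; Dusp9, Dusp11, Spred3, Fos, Etv4 and Etv5 were added after their values were seen. Members and lists were chosen with earlier results of these data known. The labels do not state whether replicate libraries are from different animals or wells; p-values therefore cover the library-to-library spread alone, and this may be technical.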

Additional observations from a re-analysis of the deposited data

How the results depend on the processing

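Of all tested genes 713 fell and 395 rose. Leaving out 1 library at a time gave 193 to 2118 lower and 65 to 1119 higher genes, 0 to 2 lower members, 0 to 1 other phosphatases in each direction, 0 to 6 lower and 0 to 2 higher Ras to ERK genes, 1 to 2 lower and 0 to 1 higher p38 and JNK genes, and 1 to 3 lower ERK response genes. The highest counts of all genes, 2118 and 1119, came without DON library 1. DESeq2 called 1348 lower and 786 higher genes, 2 lower members, 1 other phosphatase in each direction, 2 Ras to ERK genes in each direction, 2 lower p38 and JNK genes and 6 lower ERK response genes. Without a variance trend 291 genes fell and 72 rose, and 0 members and 0 Ras to ERK genes in either direction passed. With no filter 220 genes rose, and 0 Ras to ERK genes rose, as in both edgeR fits, of which that on units divided by 4 was chosen after seeing the data. The GC correction gave 720 lower and 840 higher genes, 1 higher other phosphatase, 3 higher Ras to ERK genes, 2 lower p38 and JNK genes and 5 lower ERK response genes. With equal library totals or a minimum mean of 5 CPM, 1 other phosphatase (Dusp11) rose and 2 p38 and JNK genes fell, and 1 other phosphatase rose after quantile normalization. With only DON library 1 kept in its group, which takes the spread of a single library from that of Control, 297 genes fell and 61 rose, and 0 members and 0 Ras to ERK genes passed.

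Deviations of same-numbered Control and DON libraries correlated at -0.056, -0.054 and -0.052, and those of differently numbered libraries at 0.011 to 0.04. Same-numbered libraries were not the more alike, so there was no sign of pairing by replicate number. The check cannot show whether such libraries share an animal or a preparation. With the replicate block 240 genes fell and 48 rose, 0 members and 0 Ras to ERK genes passed and 1 ERK response gene fell; with the block and the GC correction 308 fell and 213 rose, 0 members and 0 Ras to ERK genes fell, 2 Ras to ERK genes and 1 other phosphatase rose. Estimates near 0 changed sign without passing. Dusp2 ranged from -0.0599 to 0.119 with 1 library left out and was -0.179 without DON libraries 2 and 3. Dusp10 ranged from -0.069 to 0.0456, and was -0.00137 with TMM scaling and -0.083 without DON libraries 2 and 3. Dusp14 ranged from -0.327 to 0.175 with 1 library left out, and was -0.00041 with TMM scaling, -0.0452 and -0.0696 in the edgeR fits, -0.0435 in DESeq2, -0.0232 after the GC correction with or without the replicate block, and -0.0964 without DON libraries 2 and 3. Without those 2 libraries Dusp16 was at -0.0478. With 1 library left out, Mapk3 ranged from -0.0473 (without DON library 2) to 0.15 and Mapk14 from -0.499 to 0.243 (without Control library 1). The causes were not tested. With 1 library left out, Dusp1 ranged from 0.0805 to 0.195 and Dusp5 from 0.0573 to 0.226, without passing. Among the members Spry1 had the fewest units, 30 to 86 per library.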
